A study of Danio rerio with 6 samples.

Results

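The 7 intestinal absorption genes followed here, named by symbol for their parts in nutrient absorption, were measured in entire larvae of zebrafish, 7 days post fertilization. No measured value was used to name them, but the choice was made with earlier results of these data known. The 7 genes are fabp2, fabp6, vil1, slc15a1b, cdx1b, apoa4b.1 and apoa1a. All 7 were found among the 23876 genes of the deposited table, and all 7 passed the filter on low values. Where a gene had several transcripts, the one with the highest mean was used. The study compared 3 pools of wild type larvae with 3 pools of larvae homozygous for a mutation in znf469 (genotype znf469-KO in the labels, znf469-4del in the design text), a zinc finger gene that the series title ties to synthesis of extracellular matrix. Each pool held 50 whole larvae, raised at the same temperature in the same medium, and gave 1 library of polyadenylated RNA. No label names a background strain, a clutch or the number of founder lines, so the p-values cover the spread among 6 pools and no more. A pair of libraries stood apart. On the second principal component of 19277 genes (27.2% of variance) wild type replicate 1 lay at 60.4 and, at the other end, mutant replicate 2 at -53.0. On the first component (47.3% of variance), which separated the groups, the same pair lay nearest the other group. Wild type replicate 1 was at 3.14, the other wild type pools at 49.2 and 63.5. Mutant replicate 2 was at -12.8, the other mutant pools at -48.4 and -54.5. For each of the 7 genes the value without that pair of libraries is given too.

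Enterocytes take up lipids, peptides and sugars through a brush border of microvilli. Fatty acids and bile acids are carried through the cell by small binding proteins of the Fabp family, and absorbed lipid leaves the cell on lipoprotein particles that bear apolipoproteins of the Apoa and Apob kinds. In zebrafish the gut is open and begins to absorb food as the yolk runs out, and its segments differ in what they take up, with lipid uptake strongest in front and bile acid handling further back. The RNA came from whole animals. Fewer enterocytes and less RNA per enterocyte therefore cannot be told apart, and a gene that the liver or yolk layer also uses, as apoa1a is, carries the signal of those tissues too.

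None of the 7 genes passed the test between groups (0 of 7, limma, with p adjusted by the Benjamini-Hochberg method, BH, at 0.05), where 4.49% of the 22803 genes tested passed, 2.18% lower and 2.31% higher in the mutant. At an unadjusted p under 0.05 there were 2, fabp6 on the lower side and apoa4b.1 on the higher side (28.6% of the 7). Over all genes that threshold held for 18.2%, 9.17% lower and 9.03% higher. These 2 were also the genes whose mutant libraries lay wholly apart from the wild type libraries. That is 28.6% of the 7, near the 23.4% of all genes tested whose libraries did not overlap. The median log2 fold change of the 7 (mutant over wild type) was -0.20, against -0.0015 over all genes, with 5 genes lower and 2 higher in mean. DESeq2 and limma-voom on reads recovered from the values passed 1 of the 7 (fabp6), and edgeR passed 0. Of all 22803 genes DESeq2 passed 703 lower and 765 higher, limma-voom 505 and 580, and edgeR 503 and 561. The authors' deposited table gave q-values under 0.05 to 2 of them, again fabp6 and apoa4b.1. The share of all genes with such a q-value was not counted, and the limma shares above do not stand in for it.

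**Figure D1:**
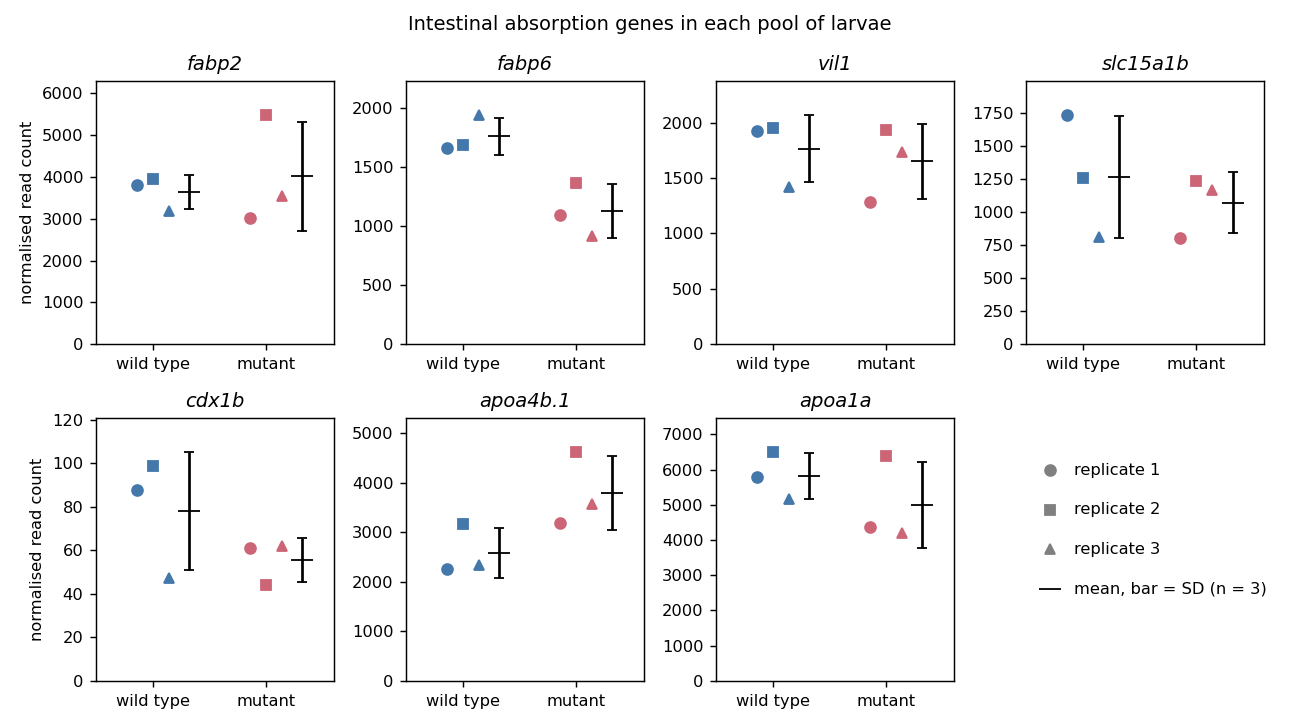
Normalised read count (vertical axis, from 0) of each of the 7 genes in the 3 wild type pools (blue) and 3 mutant pools (red), with the mean and SD beside the points. In fabp6 every mutant point lies below every wild type point, in apoa4b.1 every mutant point lies above, and in the other 5 genes the groups overlap.

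Among the binding proteins, fabp6 encodes the ileal bile acid binding protein, which carries bile acids through enterocytes of the hind part of the gut. Its normalised read count was 1656, 1680 and 1935 in wild type replicates 1 to 3 and 1093, 1365 and 911 in mutant replicates 1 to 3. The highest mutant pool was thus below the lowest wild type pool. The means were 1757 ± 154 and 1123 ± 229 (SD, n = 3), a mutant mean of 0.639 times the wild type mean. The log2 fold change was -0.66 (SE 0.18, 95% interval -1.05 to -0.27), and it did not pass (limma, BH-adjusted p = 0.0654). Unless another source or setting is named, log2 fold changes were computed on log2(value + 1), with intervals not adjusted for the number of genes. The authors' deposited table gave fabp6 a log2 fold change of -0.65 with a q-value of 0.00163. Mutant replicate 2 was the least reduced pool, and without it the value was -0.81 and passed (limma, BH-adjusted p = 0.0183). Without the pair that stood apart it was -0.85 (limma, BH-adjusted p = 0.000972). That fit leaves out the lowest wild type pool and the least reduced mutant pool of fabp6. Over all 21938 genes tested it passed 2592 lower and 2599 higher. The gene was negative under all 17 other settings and passed in 6 of them. With recovered reads of 884 to 1955 per library, counting error was small beside the spread between pools.

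The other binding protein, fabp2, carries long-chain fatty acids in enterocytes and is a standard marker of these cells. It was read at 3793, 3953 and 3174 in wild type and at 3013, 5469 and 3544 in mutant replicates 1 to 3. Mutant replicate 2 was the highest and mutant replicate 1 the lowest of the 6 libraries, so the mutant pools spanned the wild type range on both sides. The means were 3640 ± 412 and 4009 ± 1292 (SD, n = 3). On the log2 scale the fold change was 0.10 (SE 0.22, 95% interval -0.40 to 0.60, limma, BH-adjusted p = 0.868). Its sign turned without mutant replicate 2, to -0.15, and without the pair that stood apart, to -0.12. A second transcript of fabp2 held 66.3% to 70.3% of the reads of the one used here, with a log2 difference of 0.11. Whether the 2 transcripts share reads was not tested.

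Of the apolipoproteins, apoa4b.1 belongs to the ApoA-IV group, which coats lipid particles made by enterocytes and, in zebrafish larvae, also by the yolk syncytial layer. Its normalised read count was 2266, 3174 and 2332 in wild type and 3192, 4623 and 3569 in mutant replicates 1 to 3. The groups did not overlap, but the lowest mutant pool (3192) stood barely above the highest wild type pool (3174). The means were 2591 ± 506 and 3795 ± 742 (SD, n = 3), 1.46 times higher in the mutant. The log2 fold change was 0.55 (SE 0.20, 95% interval 0.11 to 0.99), and it did not pass (limma, BH-adjusted p = 0.164). In the authors' deposited table it was 0.55 with a q-value of 0.0392. The value was positive under all 17 other settings and passed in none of them (0), with adjusted p from 0.0760 to 0.373, and was 0.31 without the pair that stood apart (adjusted p = 0.158).

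The gene apoa1a encodes apolipoprotein A-I, the main protein of high density lipoprotein, made in gut, liver and yolk layer. It was at 5781, 6498 and 5173 in wild type and at 4367, 6398 and 4207 in mutant replicates 1 to 3. Mutant replicates 1 and 3 were below all wild type pools, and mutant replicate 2 was nearly as high as the highest of them. The means were 5817 ± 663 and 4991 ± 1221 (SD, n = 3). On the log2 scale the fold change was -0.24 (SE 0.20, 95% interval -0.69 to 0.21, limma, BH-adjusted p = 0.585). Its interval includes the -0.66 of fabp6. Of the other 17 settings, the one that left out wild type replicate 1 and mutant replicate 2 together took apoa1a past the threshold, at -0.44 (adjusted p = 0.0383). That fit leaves out the highest mutant pool of apoa1a. Over all 21938 genes tested it passed 2592 lower and 2599 higher.

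The brush border gene vil1 encodes villin, which bundles and severs the actin filaments of microvilli. It was at 1924, 1954 and 1419 in wild type and at 1282, 1935 and 1734 in mutant replicates 1 to 3, with means of 1766 ± 301 and 1650 ± 335 (SD, n = 3). Each group had 1 low pool, wild type replicate 3 and mutant replicate 1, and the other 4 libraries lay close together. The log2 fold change was -0.10 (SE 0.20, 95% interval -0.54 to 0.34, limma, BH-adjusted p = 0.840), and its sign turned without mutant replicate 1, to 0.07. Without the pair that stood apart it was -0.16. The second transcript of vil1 held 98.8% to 99.9% of the reads of the first, so its log2 difference of -0.10 adds no separate result.

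The transporter slc15a1b is PepT1, which takes up di- and tripeptides with protons across the brush border. Its wild type pools differed more than the groups did, at 1731, 1254 and 807, against 807, 1233 and 1170 in mutant replicates 1 to 3. The means were 1264 ± 462 and 1070 ± 230 (SD, n = 3). On the log2 scale the fold change was -0.20 (SE 0.27, 95% interval -0.80 to 0.40, limma, BH-adjusted p = 0.761). Without wild type replicate 1, the highest library, it was 0.06, and without the pair that stood apart -0.05. The interval includes the -0.66 of fabp6.

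The transcription factor gene cdx1b, a caudal homeobox gene needed in zebrafish for intestinal differentiation, was the member with the fewest reads, 41 to 101 per library. Its normalised read count was 87.8, 99.0 and 47.5 in wild type and 60.9, 44.2 and 61.8 in mutant replicates 1 to 3. The means were 78.1 ± 27.1 and 55.6 ± 9.94 (SD, n = 3), with wild type replicate 3 inside the mutant range. The log2 fold change was -0.43 (SE 0.32, 95% interval -1.14 to 0.28, limma, BH-adjusted p = 0.531). It had the widest interval of the 7, and that interval too includes -0.66. With 1 library left out the value ran from -0.23 (without wild type replicate 2) to -0.75 (without wild type replicate 3), and it was -0.28 without mutant replicate 2 and -0.16 without the pair that stood apart.

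**Figure D2:**
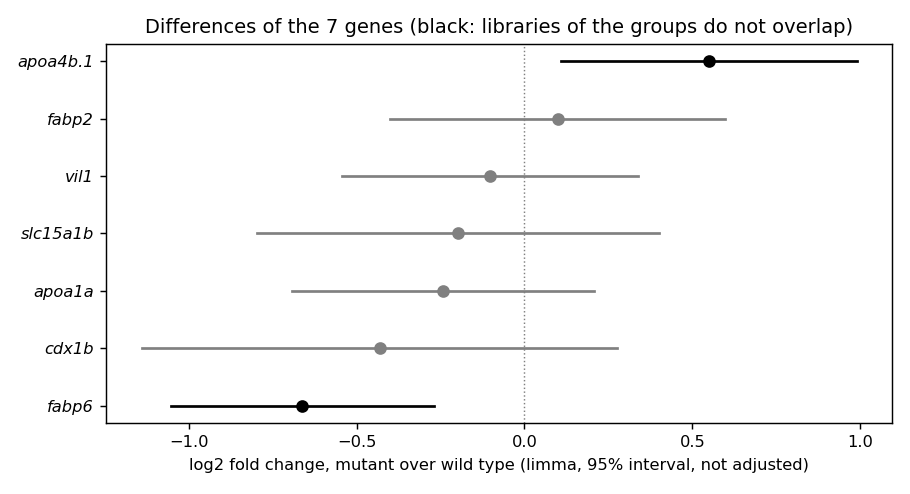
Log2 fold change of each gene (horizontal axis, mutant over wild type) with its unadjusted 95% interval. The intervals of fabp6 (-1.05 to -0.27) and apoa4b.1 (0.11 to 0.99) lie on opposite sides of 0, and those of the other 5 genes include 0.

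The pools also differed among themselves within each group. Mutant replicate 2 was the highest mutant pool in 6 of the 7 genes, all but cdx1b. Wild type replicate 2 was the highest wild type pool in 5, and wild type replicate 3 the lowest in 5. In summed level, every gene list used below except the brush border and clock lists had the same high mutant pool. For 23 exocrine pancreas genes that sum was 201690 in mutant replicate 2 and 117501 and 137751 in the other mutant pools. In wild type it was 89387 to 139507, highest in wild type replicate 1. Its part in the values of the 7 genes was not tested. Recovered reads over all transcripts ranged from 17023269 to 19156581 per library, and with 1 transcript per gene from 8111192 to 9683579. Whether a read was counted for several transcripts of a gene was not tested, so the first range may overstate depth.

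Dividing 1 gene by another within a library takes out whatever scales them alike, such as a library factor. This step was chosen after the values had been seen. It compares how a ratio differs between libraries, and not the levels of different genes. Of the 21 pairs among the 7 genes, 10 had log2 ratios that did not overlap between groups (47.6%), where 28.5% of all pairs of genes with a mean of 50 or more did so. Of those 10 pairs, 9 involve fabp6 or apoa4b.1, and pairs that share a gene are not independent. The log2 ratio of fabp6 to apoa4b.1 was -0.45, -0.92 and -0.27 in wild type and -1.54, -1.76 and -1.97 in mutant replicates 1 to 3. Its means were -0.55 ± 0.33 and -1.76 ± 0.21 (SD, n = 3), a difference of -1.21. That is the largest of the 21 because these genes have the lowest and highest log2 fold changes of the 7. Neither gene overlapped between groups, and they differed in opposite directions, so their ratio could not overlap. It adds no separate result. Against its relative fabp2, fabp6 was also lower in each mutant pool, with a log2 ratio of fabp2 to fabp6 of 1.05 ± 0.29 in wild type and 1.81 ± 0.30 in the mutant (SD, n = 3). The log2 ratios of fabp6 to slc15a1b and of fabp6 to cdx1b overlapped between groups. The log2 ratio of apoa4b.1 to each of the other 6 genes was higher in every mutant pool than in any wild type pool. With apoa1a as partner it was -1.18 ± 0.16 in wild type and -0.39 ± 0.13 in the mutant (SD, n = 3). Of the 10 pairs, the one without fabp6 or apoa4b.1 was fabp2 to apoa1a. Its log2 ratio was -0.68 ± 0.06 in wild type and -0.34 ± 0.17 in the mutant (SD, n = 3). In contrast, vil1 and slc15a1b kept overlapping ratios (0.53 ± 0.34 and 0.63 ± 0.05, SD, n = 3), as did fabp2 and vil1 (1.05 ± 0.10 and 1.25 ± 0.23). With 3 against 3, an exact permutation test cannot give these ratios a two-sided p below 0.1, so none was used to support them.

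**Figure D3:**
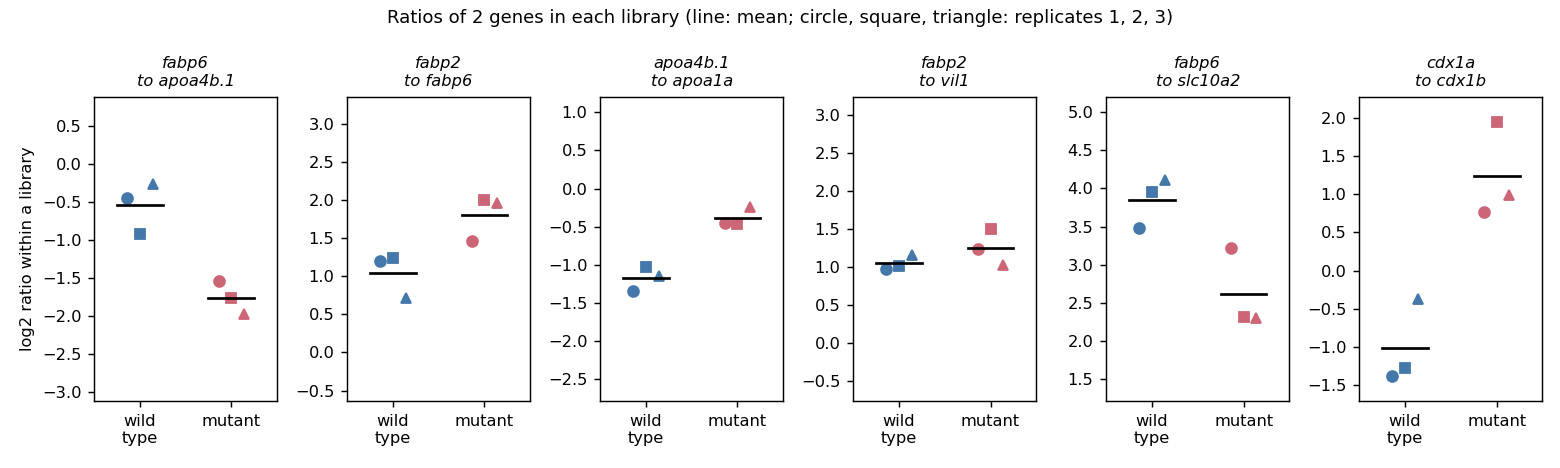
Log2 ratio of 2 genes within each library (vertical axis, the same span of 4 log2 units in every panel), in wild type (blue) and mutant (red) pools, with the group mean as a line. The ratio of fabp6 to apoa4b.1 has means of -0.55 in wild type and -1.76 in the mutant, that of cdx1a to cdx1b has means of -1.01 and 1.24, and that of fabp2 to vil1 overlaps between groups. The ratios of fabp6 to apoa4b.1 and of cdx1a to cdx1b could not overlap, given the values of the single genes.

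Several members have a close relative in the same genome. The other cdx1 gene, cdx1a, rose in the mutant, from 33.1, 40.2 and 36.6 in wild type to 105, 173 and 124 in mutant replicates 1 to 3. Its log2 fold change was 1.82 (SE 0.26, limma, BH-adjusted p = 0.00467), and it passed under all 17 other settings (adjusted p of at most 0.0276). The log2 ratio of cdx1a to cdx1b was -1.01 ± 0.56 in wild type and 1.24 ± 0.63 in the mutant (SD, n = 3), and its libraries did not overlap between groups. Values are not scaled by transcript length, so a ratio is read only between libraries and not as 1 gene being more abundant than another. The other apolipoprotein A-I gene, apoa1b, was at 25951, 34988 and 34834 in wild type and at 17859, 22250 and 13683 in mutant replicates 1 to 3, so the groups did not overlap. At a log2 fold change of -0.85 it did not pass (SE 0.26, limma, BH-adjusted p = 0.0985), and it passed in 5 of the 17 other settings, among them the one without the pair that stood apart (-1.16, adjusted p = 0.000805). That pair holds the lowest wild type pool and the highest mutant pool of apoa1b. The fit without it passed 2592 lower and 2599 higher of 21938 genes. Within libraries the log2 ratio of apoa1b to apoa1a was 2.45 ± 0.29 in wild type and 1.84 ± 0.17 in the mutant (SD, n = 3). Next to apoa4b.1, the copy apoa4b.2 was at 0.40 (adjusted p = 0.286). Whether reads were exchanged between these copies was not tested. The second peptide transporter gene, slc15a1a, was at 0.16 (adjusted p = 0.795). Both apoa4b.2 and slc15a1a were chosen after their values had been seen.

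As genes that work beside the members, 100 were listed in 4 groups, not all of them genes of enterocytes, and 96 were tested. Among these 96, 1 fell (abcb11b, which works in hepatocytes and not in the gut), none rose (0) and 95 did not pass (limma, BH-adjusted), with a median log2 fold change of 0.05. At an unadjusted p under 0.05 there were 4 lower (4.17%) and 13 higher (13.5%), against 9.17% and 9.03% of all genes. DESeq2 called 3 in each direction and edgeR called 1 lower and 0 higher. Of all 22803 genes DESeq2 called 703 lower and 765 higher, and edgeR 503 and 561. Libraries did not overlap in 17.7% of the 96, below the 23.4% of all genes. Without the pair of libraries that stood apart, 8 were lower and 12 higher, in a fit that called 2592 and 2599 of 21938 genes in all.

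The lipid group, 26 genes for fatty acid uptake, triglyceride synthesis and lipoprotein assembly, had a median of -0.11 and no call (0, with 3 lower and 2 higher at an unadjusted p under 0.05, 2 lower with DESeq2 and 0 with edgeR). The unadjusted counts are 11.5% lower and 7.69% higher, against 9.17% and 9.03% of all genes. Here and in the groups below, DESeq2 and edgeR counts are read against those over all genes given above. The genes with the highest values there, which are not scaled by length, were apoa1b and the apolipoprotein B gene apobb.1, the latter at 0.55 (adjusted p = 0.297). The liver-type binding protein fabp1b.1, expressed in the front part of the larval gut and chosen after its values were seen, was at 1072, 1116 and 939 in wild type and at 432, 904 and 538 in mutant replicates 1 to 3. Like fabp6 it did not overlap between groups, and at -0.81 (SE 0.24) it did not pass (limma, BH-adjusted p = 0.0991). With 1 library left out it ran from -1.11 without mutant replicate 2, again the least reduced pool (adjusted p = 0.00779), to -0.58 without mutant replicate 1 (adjusted p = 0.300).

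The 24 transporters of amino acids, peptides, sugars, vitamins and phosphate had a median of 0.21, and none passed (0, with 0 lower and 6 higher at an unadjusted p under 0.05, 1 higher with DESeq2 and 0 with edgeR). The unadjusted counts are 0% lower and 25% higher, against 9.17% and 9.03% of all genes. In this list, slc2a5 was matched through a synonym to the row slc2a15a, which may be another gene. The amino acid transporter slc7a8a was at 0.42 (adjusted p = 0.245), the dicarboxylate transporter slc13a2 at 0.45 (adjusted p = 0.258). The neutral amino acid transporter slc6a19b, also chosen after its values were seen, was at 769, 647 and 369 in wild type and at 872, 1308 and 1014 in mutant replicates 1 to 3. That was 0.88 on the log2 scale (SE 0.26, limma, BH-adjusted p = 0.0951), and with 1 library left out it ran from 0.57 without wild type replicate 3 (adjusted p = 0.228) to 1.10 without wild type replicate 1 (adjusted p = 0.0310).

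The 30 brush border genes had a median of 0.06 and no call (0, with 0 lower and 3 higher at an unadjusted p under 0.05, 1 higher with DESeq2 and 0 with edgeR). The unadjusted counts are 0% lower and 10% higher, against 9.17% and 9.03% of all genes. The aminopeptidase gene anpepb was at 0.36 (adjusted p = 0.491).

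In the group for bile acid handling and lysosome-rich enterocytes, 1 of 16 genes fell and 15 did not pass, with a median of 0.00045. The gene that fell, abcb11b, encodes the bile salt export pump of hepatocytes. It went from 316 ± 122 to 135 ± 25.6 (SD, n = 3; -1.17, SE 0.27, limma, BH-adjusted p = 0.0407). Leaving out any 1 library but wild type replicate 3 ended that call (adjusted p of at most 0.140), as did equal totals, limma-voom and sums over transcripts (0.0902, 0.0608 and 0.0591), so that it passed in 9 of 17 settings. Its value was -0.71 without the pair that stood apart. In this group edgeR called 1 lower and 0 higher, DESeq2 called 1 lower and 1 higher, and limma-voom called 0. At an unadjusted p under 0.05 (limma) there were 1 lower (6.25%) and 2 higher (12.5%), against 9.17% and 9.03% of all genes. The gene of the ileal bile acid importer, slc10a2, the step before Fabp6 in bile acid uptake, was at 147, 108 and 111 in wild type and at 116, 273 and 184 in mutant replicates 1 to 3 (0.57, adjusted p = 0.348). The log2 ratio of fabp6 to slc10a2 was 3.85 ± 0.33 in wild type and 2.61 ± 0.53 in the mutant (SD, n = 3) without overlap, a pair chosen after its values were seen.

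Transcription factors of the gut epithelium showed 1 of 27 lower, 1 higher (cdx1a) and 25 that did not pass, with a median of -0.14. Over all genes 2.18% passed lower and 2.31% higher. The gene that fell was sox9b, a factor of progenitor cells in several organs and of cartilage, from 215 ± 46.2 to 117 ± 9.89 (SD, n = 3; -0.86, SE 0.21, limma, BH-adjusted p = 0.0464). That call survived the loss of wild type replicate 1 but of no other single library (adjusted p up to 0.268), and it ended with sums over transcripts (0.0704) and with the replicate block (0.0599). Of 22 goblet and enteroendocrine genes none passed (0, with 2 lower and 1 higher at an unadjusted p under 0.05, 1 higher with DESeq2 and 0 with edgeR). The unadjusted counts are 9.09% lower and 4.55% higher, against 9.17% and 9.03% of all genes. The median there was 0.17, and the genes with the highest values were neurod1 at 0.11 (adjusted p = 0.916), which neurons also express, and the mucin gene muc5.1 at -0.79 (adjusted p = 0.464). With 1 library left out, muc5.1 ran from -0.27 without wild type replicate 1 to -1.47 without wild type replicate 3 (adjusted p = 0.767 and 0.0544).

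**Figure D4:**
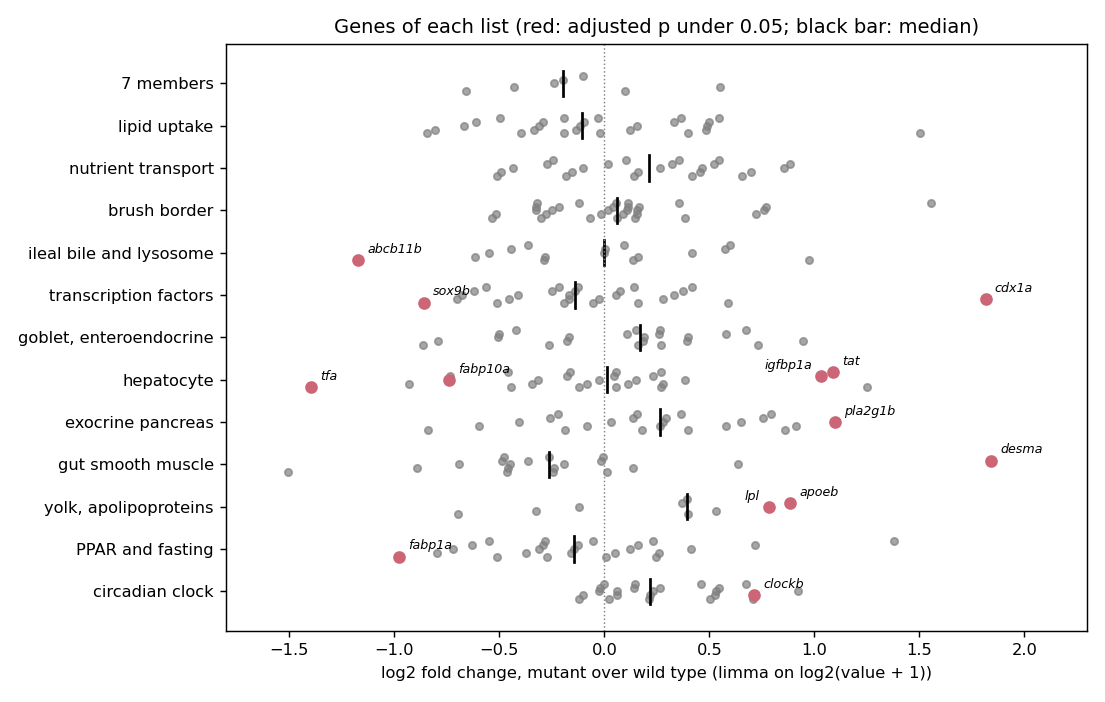
Log2 fold change (horizontal axis, mutant over wild type) of every tested gene in the 7 members and in 12 lists, 1 row per list, with medians as black bars. Genes past the threshold are red and named. Among the 4 enterocyte lists (lipid uptake to ileal bile and lysosome) abcb11b alone is red, a gene of hepatocytes, and cdx1a at 1.82 lies far from the other transcription factors.

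Organs that share genes with the gut, and other lists, gave 10 further calls, in a fit that passed 4.49% of all genes tested. Of 26 hepatocyte genes (median 0.01), the transferrin gene tfa fell by 1.40 and the binding protein gene fabp10a by 0.74 on the log2 scale (limma, BH-adjusted p = 0.0112 and 0.0492), and igfbp1a and the aminotransferase gene tat rose by 1.03 and 1.09 (adjusted p = 0.00932 and 0.0425). The summed level of that list was 50584 to 63643 in wild type and 44597 to 62624 in the mutant, no gene of it was at 0, and its part in apoa1a was not tested. Of 9 yolk-associated and lipoprotein genes (median 0.39), the apolipoprotein E gene apoeb and the lipoprotein lipase gene lpl rose by 0.88 and 0.78 (adjusted p = 0.0400 and 0.0361). Their summed level was 13178 to 15549 in wild type and 17587 to 26624 in the mutant, on the same side as apoa4b.1, and its part in that gene's value was not tested. In the exocrine pancreas list (median 0.26) 1 of 23 rose, the phospholipase gene pla2g1b at 1.10 (adjusted p = 0.0364). In the gut smooth muscle list (median -0.27) 1 of 19 rose, desma, a desmin gene also of skeletal and heart muscle, at 1.84 (adjusted p = 0.000417). In the list of fatty acid oxidation and fasting targets (median -0.14) 1 of 25 fell, fabp1a, at -0.98 (adjusted p = 0.0369), and of 23 clock genes (median 0.22) 1 rose, clockb, at 0.71 (adjusted p = 0.0314). Of these 10 calls, 8 ended without wild type replicate 2, 8 without mutant replicate 3, 7 without wild type replicate 3, 5 without mutant replicate 1, 3 without wild type replicate 1 and 3 without mutant replicate 2, with adjusted p up to 0.208. Sums over transcripts ended 5 of them (adjusted p from 0.0511 to 0.0633), the replicate block 2 (lpl and fabp10a), equal totals 1 (clockb), and a pseudocount of 0.5 or no filter 1 (fabp10a). The call of desma was the only one of the 10 that passed in all 17 other settings. Without the pair that stood apart, 2592 of all 21938 genes tested passed lower and 2599 higher. The counts lower and higher were 6 and 3 of 26 for hepatocytes and 1 and 3 of 9 for yolk-associated genes. They were 0 and 6 of 23 for pancreas, 8 and 1 of 19 for smooth muscle and 8 and 5 of 25 for the fasting targets. For the clock they were 0 and 11 of 23, and for the gut transcription factors 5 and 2 of 27.

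The genes whose profile over the 6 libraries was most like that of a member were searched among 11938 named genes with a mean of 50 or more, as the root-mean-square difference between log2 profiles centred on their own means. For fabp6 they were pcmt and rrm2b (differences of 0.064 each), in a profile that spanned 1.09 log2 units. For apoa4b.1 they were adi1 and raf1a (0.060 and 0.064). Nearest to fabp2 were shpk and fstb (0.056 and 0.069), to vil1 colec12 and myo15b (0.035 and 0.046), to slc15a1b proser2 and enpp7.1 (0.073 and 0.074), and to apoa1a p2rx3b and abcb8 (0.042 and 0.043). The profile of cdx1b had no neighbour as close, with b4galnt3b at 0.11 and ihha at 0.15. None of the 14 nearest genes is in any of the 12 lists. The lists do not hold every gene of the gut, so this does not place the 14 outside it. With 6 libraries and this many genes, close profiles are a description of these libraries only.

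**Figure D5:**
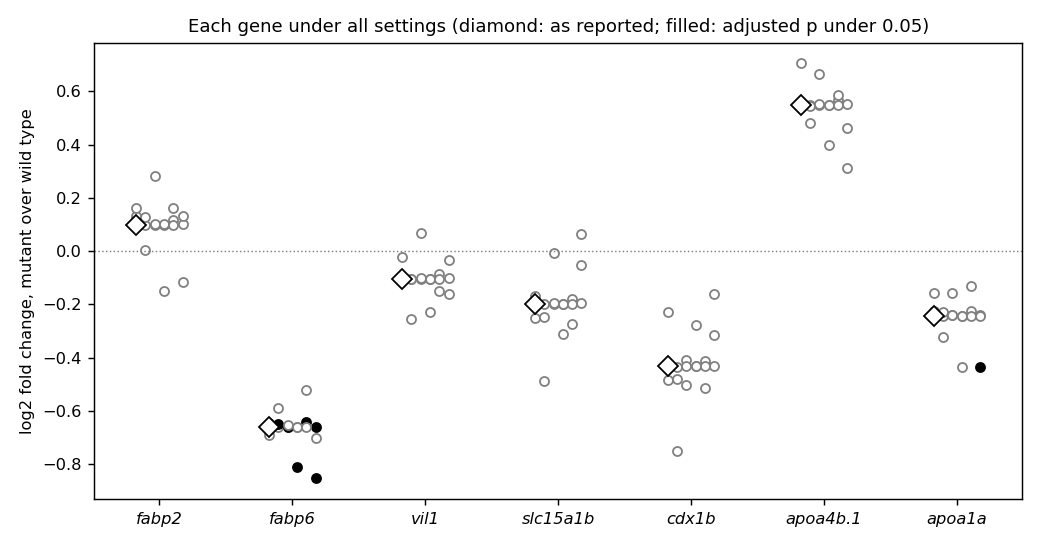
Log2 fold change (vertical axis, mutant over wild type) of each of the 7 genes as reported (diamond) and under 17 other settings (circles), filled where the adjusted p was under 0.05. The points of fabp6 run from -0.85 to -0.52 with 6 filled, those of apoa4b.1 from 0.31 to 0.70 with none filled, and those of fabp2, vil1 and slc15a1b lie on both sides of 0.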

How the data were processed

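Polyadenylated RNA of 3 wild type and 3 znf469 mutant pools was sequenced per the labels. The deposited table gives 1 signal value per library for 45602 RefSeq transcripts, with no unit named. In every library 100% of the signal values were whole multiples of the smallest positive one (tolerance 0.001 of a step), so the authors had divided reads by 1 factor per library. The step of wild type replicate 3, 0.990, is so near 1 that it is harder to tell from rounding. The deposited log2 fold changes, p-values and q-values are the authors' own. The submitters' processing notes name the build GRCz11. Aligner, counter, strand setting and test were not given in the sources used here.

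Genes were tested with limma 3.58.1 (R 4.3.3) on log2(value + 1) with an intensity trend, keeping genes that reached 1 in 3 or more libraries. Benjamini-Hochberg adjustment ran over all 22803 genes kept (threshold 0.05). The code was tested on simulated data. Reads recovered from the values went to edgeR 4.0.16, DESeq2 1.42.0 and limma-voom as alternatives. Of 298 list entries, 272 matched a row, 260 of them by symbol and the others through a reference annotation. Members and lists were chosen with earlier results of these data known. The text names the members, up to 4 called genes per list and direction, the 2 genes with the highest mean value of a list with no call, and 2 nearest profiles per member; other names are marked. A gene that this rule also names is not reported here. No sequence is shown, and no coordinates, since the annotation at hand is of another build.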

Additional observations from a re-analysis of the deposited data

How the results depend on the processing

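The 17 alternatives were other pseudocounts (0.5 and 5), no filter, equal totals, RLE factors, edgeR, DESeq2, limma-voom, sums over transcripts, the replicate block, each library left out, and both libraries that stood apart left out. Over all genes 497 were lower and 526 higher. Leaving out 1 library gave 99 to 772 lower and 152 to 872 higher, and leaving out the pair 2592 and 2599. That last fit drops libraries because they stood apart, which lowers the spread within groups. The pair also lay nearest the other group on the first principal component, so leaving it out moves the groups apart on that component. No member passed the threshold on the higher side in any setting. The number of members that passed on the lower side was 1 with equal totals, RLE factors, DESeq2 and limma-voom, 0 to 1 with 1 library left out, and 2 without the pair. The log2 fold change of fabp6 passed at -0.64, -0.66, -0.65 and -0.66 in the first 4 of these (adjusted p = 0.0246, 0.0452 and 0.0122, and just under the threshold with limma-voom), ranged from -0.81 to -0.52 with 1 library left out, and was -0.85 without the pair (adjusted p = 0.000972). That fit also passed apoa1a, at -0.44. With 1 library left out, fabp2 ranged from -0.15 to 0.28 (-0.12 without the pair), vil1 from -0.25 to 0.068, slc15a1b from -0.49 to 0.063, slc15a1a from -0.10 to 0.38 and neurod1 from -0.35 to 0.44 (-0.55 without the pair). The causes were not tested. Same-numbered pools were not treated as pairs in the main fit. Their deviations from the group means correlated at 0.14, 0.13 and -0.26, and those of differently numbered pools at -0.32 to 0.28. With 3 pools per group these values cannot settle whether pools were paired. With the replicate block 488 genes were lower and 492 higher, and 0 members passed (fabp6 adjusted p = 0.0903). Of the members, cdx1b had the fewest reads, 41 to 101 per library, against 816 to 1833 for slc15a1b. On the log2 scale the SD of cdx1b was 0.56 in wild type and 0.27 in the mutant. That of slc15a1b was 0.55 and 0.33. The part of depth in the spread of cdx1b was not tested.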
